A study of Mus musculus with 20 samples.

Results

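The beta-2 integrins and their ligands are described here in mouse epididymal white adipose tissue (eWAT), as 10 genes of the 14776 in the expression table. The genes were chosen by their role, with earlier results of these data known. They are Itgal, Itgam and Itgax (the alpha chains CD11a, CD11b and CD11c), Itgb2 (the shared beta-2 chain, CD18), Fermt3 (kindlin-3, the intracellular activator), the ligands Icam1, Icam2 and Vcam1, and Itga4 and Itgb1, the chains of the Vcam1 receptor VLA-4. All 10 were above 0 FPKM in every mouse, as was every gene in the table.

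Male C57BL/6J mice, 6 weeks old at the start, were fed either a maintenance chow (NC group, 6 mice) or a diet with 60 kcal% fat (HFD and SZ-A groups, 7 mice each). After 14 weeks, the HFD group was given saline by gavage and the SZ-A group was given 400 mg/kg/d of SZ-A, the alkaloid fraction of mulberry twig (Ramulus Mori), for another 6 weeks, while the high-fat diet went on in both. RNA of whole eWAT was sequenced once per mouse. Saline gavage of the HFD group makes it the control of the SZ-A group, and both high-fat groups were compared with NC.

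Integrins are receptors of an alpha and a beta chain that hold a cell to its neighbours or to matrix. The beta-2 chain is found on leukocytes, where CD11a/CD18 (LFA-1) binds Icam1 and Icam2, CD11b/CD18 (Mac-1) binds Icam1, fibrinogen and complement fragments, and CD11c/CD18 is carried by dendritic cells and by many macrophages of obese fat. Endothelial Icam1 and Vcam1 are induced by inflammatory cytokines, whereas Icam2 is made by resting endothelium. Talin and kindlin-3 bind the tail of the beta chain and switch the receptor to its binding form.

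In the GRCm38 assembly with GENCODE M21 annotation, the 3 alpha-chain genes lie on the plus strand of chromosome 7. Itgal spans chr7:127296260-127335138, Itgam chr7:128062640-128118491 and Itgax chr7:128129547-128150657, so that 727501 bases separate Itgal from Itgam and 11055 bases separate Itgam from Itgax. Itgb2 lies at chr10:77530252-77565708 (plus), Fermt3 at chr19:6998958-7019469 (minus), Icam1 at chr9:21015985-21028817 (plus), Icam2 at chr11:106377656-106388075 (minus) and Vcam1 at chr3:116109949-116129688 (minus). Itga4 lies at chr2:79255426-79333123 and Itgb1 at chr8:128685654-128733200, both on the plus strand.

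RefSeq promoters of build GRCm38.p6, from 250 bases before to 50 bases after the transcription start, were at hand for 6 of the 10 genes (Itga4, Itgam, Itgax, Itgb1, Icam1 and Fermt3). They were searched on both strands for GAGGAAGT, the core bound by the myeloid factor PU.1, and for GGNNNTTCC, a pattern of NF-kappaB sites. The first was in 0 of 6, and in 3.20% of all 32851 promoters. The second was in Icam1 and Itgb1, and in 18.5% of all promoters. In Icam1 the match GGAAATTCC began at −153 from the start and reads as the pattern on both strands, and GGAAATACC at −84 reads as the pattern on the minus strand. A match is only a stretch of letters and no binding was measured. The Icam1 promoter is shown for these matches, in capitals, and those of the neighbours Itgam and Itgax because the levels of these genes moved by different amounts. Icam1 is at chr9:21015690-21015989, Itgam at chr7:128062390-128062689 and Itgax at chr7:128129300-128129599, all on the plus strand, 5′ to 3′.
Icam1: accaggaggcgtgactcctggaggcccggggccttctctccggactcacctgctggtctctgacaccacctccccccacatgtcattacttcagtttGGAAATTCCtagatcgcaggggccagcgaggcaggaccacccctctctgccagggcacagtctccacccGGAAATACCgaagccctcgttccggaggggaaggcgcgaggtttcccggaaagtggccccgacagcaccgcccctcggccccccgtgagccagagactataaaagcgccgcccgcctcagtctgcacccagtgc
Itgam: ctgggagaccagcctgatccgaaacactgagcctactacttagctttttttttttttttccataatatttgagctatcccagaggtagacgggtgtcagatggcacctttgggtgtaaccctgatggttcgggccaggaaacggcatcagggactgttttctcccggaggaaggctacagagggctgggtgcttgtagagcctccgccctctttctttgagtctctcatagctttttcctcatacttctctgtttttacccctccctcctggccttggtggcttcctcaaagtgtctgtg
Itgax: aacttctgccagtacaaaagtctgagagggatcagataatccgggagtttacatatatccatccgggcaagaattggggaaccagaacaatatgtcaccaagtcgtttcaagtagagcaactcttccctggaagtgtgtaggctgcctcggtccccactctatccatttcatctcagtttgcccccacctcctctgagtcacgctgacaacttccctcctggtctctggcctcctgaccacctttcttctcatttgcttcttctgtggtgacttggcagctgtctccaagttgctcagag

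The values were deposited as FPKM (fragments per kilobase of exon, scaled to sequencing depth), and whole reads recovered from them came to 13567666 to 19388619 per mouse. NC replicate 6 stood apart from the other mice: its median correlation with them was 0.697, against 0.853 to 0.953 for the rest, its Adipoq level was 26.6 FPKM, against 860 to 2278 in the other NC mice, and its endothelial marker Pecam1 was at 0.981 FPKM. Its label as adipose tissue is therefore not borne out by these markers. Values without it stand beside the main NC results of the 10 genes and the overall counts of other adhesion genes. Changes of single other adhesion genes include it unless stated. Krt18, a keratin of epithelium and mesothelium, exceeded 100 FPKM in NC replicates 1, 2 and 6 and in SZ-A replicates 2 and 7 and was at most 3.23 FPKM in HFD. The 3 epididymis markers in the table, of 17 listed (Ramp3, Adgrg2 and Aqp9), also differed between the groups, with sums of 31.4 to 601 FPKM in NC mice, 1.35 to 2.63 FPKM in HFD mice and 3.54 to 254 FPKM in SZ-A mice, and all 3 were called lower in HFD than in NC (limma); their part in the results was not tested. Macrophage markers (12 of 12 listed genes in the table) summed to 85.8 to 840 FPKM in NC mice, 3544 to 9333 FPKM in HFD mice and 1432 to 4783 FPKM in SZ-A mice. Endothelial markers (10 of 10) summed to 27.3 to 683, 137 to 513 and 237 to 1042 FPKM. None of the listed markers in the table was at 0, which held for every gene in the table, and only 2 of 8 neutrophil markers were in it. In RNA of whole tissue, fewer cells of a type and less RNA per cell cannot be told apart.

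The first comparison, of HFD with NC, asks how these genes differed after the high-fat diet. The study names no gavage for NC in its description of the groups, so diet and gavage may not be separable here. Of the 10, 9 were higher in HFD at an adjusted p under 0.05 and none was lower (limma on log2(FPKM + 1), Benjamini-Hochberg over 14706 genes), where 41.1% of all genes tested were called and 21.0% were called higher. With a log2 fold change over 1.5 as well, a stricter rule taken from the methods of the study, 6 were higher (Itgax, Itgb2, Fermt3, Itgam, Itga4 and Icam1), where 5.43% of all genes were. The groups did not overlap for 7 genes, where 12.7% of all genes lay higher in every HFD mouse. The median log2 fold change was 1.81 over the 10 genes and −0.04 over all genes. Without the NC libraries high in Krt18, 8 were called, Icam2 being lower (−0.78, limma, adjusted p = 0.025) and Itgal and Vcam1 not called (0.052 and 0.43). Without NC replicate 6, 8 were called and 5 passed the size of 1.5.

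Itgax rose most. It lay between 0.129 and 2.31 FPKM in NC (median 1.57) and between 82.8 and 168 FPKM in HFD (median 93.5), so that the lowest HFD mouse was far above the highest NC mouse. Mean FPKM was 82.9-fold higher (70.1-fold without NC replicate 6), and the log2 fold change of FPKM + 1 was 5.62 ± 0.27 (SE; limma, adjusted p = 1.3e-08). Itgb2, the chain that every beta-2 integrin needs, ran from 0.607 to 14.5 FPKM in NC (median 5.86) and from 161 to 534 FPKM in HFD (median 211). The log2 fold change of Itgb2 was 5.47 ± 0.46 (limma, adjusted p = 9.1e-07), with no overlap, and it was 5.09 without NC replicate 6.

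Itgam, the alpha chain of Mac-1, rose as well but from a like start to a much lower level. It was 0.342 to 2.26 FPKM in NC (median 1.90) and 9.40 to 40.8 FPKM in HFD (median 13.0), a log2 fold change of 2.86 ± 0.33 (limma, adjusted p = 1.6e-05), and of 2.69 without NC replicate 6. Itgal, the alpha chain of LFA-1 and the one that T cells carry, had the smallest change of the 3 alpha chains: it was 0.146 to 1.42 FPKM in NC (median 0.698) and 1.20 to 2.50 FPKM in HFD (median 1.62), and the groups overlapped. Its log2 fold change was 0.73 ± 0.18 (limma, adjusted p = 0.0048) and 0.63 without NC replicate 6. These levels are low beside the 1 FPKM added before taking logs, and the log2 fold change of Itgal was 1.46 and 1.67 with pseudocounts of 0.1 and 0.01 FPKM. T cell markers (8 of 8 in the table) summed to a median of 5.46 FPKM in NC and 8.92 FPKM in HFD, with all mice between 2.77 and 15.2 FPKM. Of these 8, 0 were called by limma. Fermt3, which is expressed in blood cells, was 1.11 to 5.97 FPKM in NC (median 2.97) and 33.1 to 75.4 FPKM in HFD (median 50.7), with a log2 fold change of 3.66 ± 0.27 (limma, adjusted p = 2.7e-07), and of 3.48 without NC replicate 6.

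**Figure D1:**
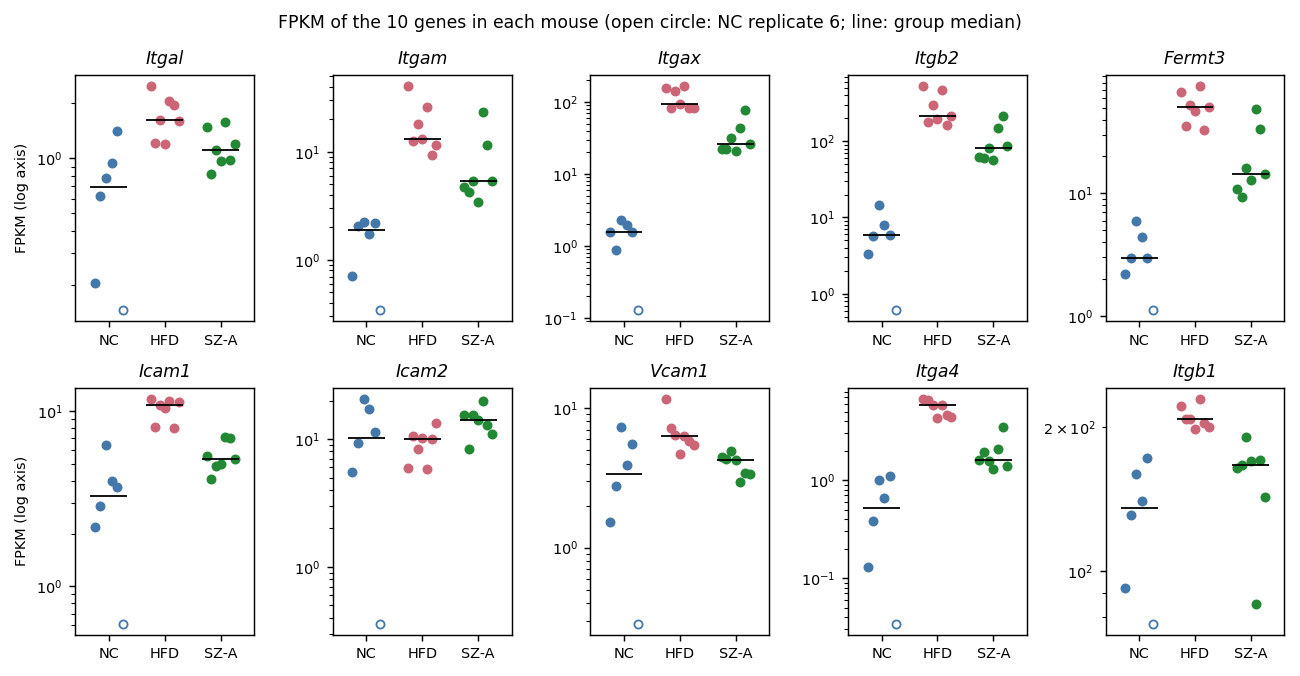
FPKM of each of the 10 genes (log axis, 1 panel per gene) in the single mice of the NC, HFD and SZ-A groups; lines are group medians and the open circle is NC replicate 6. NC replicate 6 was the lowest NC mouse for all 10 genes, the HFD mice lay above all NC mice for 7 genes, and Icam2 overlapped between all groups.

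Among the ligands, Icam1 rose without overlap, from 0.614 to 6.41 FPKM in NC (median 3.27) to 7.97 to 11.7 FPKM in HFD (median 10.9). Its log2 fold change was 1.52 ± 0.27 (limma, adjusted p = 0.00063), and 1.27 without NC replicate 6. Vcam1 was 0.286 to 7.26 FPKM in NC (median 3.35) and 4.70 to 11.6 FPKM in HFD (median 6.32), and the groups overlapped. The call for Vcam1 was narrow (log2 fold change 0.97 ± 0.36, limma, adjusted p = 0.046) and was lost on leaving out any of 11 of the 13 mice, all except NC replicates 3 and 5, with an adjusted p of 0.062 without NC replicate 6. Icam2 was 0.360 to 20.5 FPKM in NC (median 10.3) and 5.81 to 13.3 FPKM in HFD (median 10.1). It was not called (log2 fold change 0.18, 95% interval −0.93 to 1.28, limma, adjusted p = 0.81), and its sign turned, to −0.36, without NC replicate 6.

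Both chains of VLA-4 rose with no overlap, by very different amounts. Itga4 was 0.0344 to 1.10 FPKM in NC (median 0.522; only 7 reads in NC replicate 6) and 4.35 to 6.72 FPKM in HFD (median 5.79), with a log2 fold change of 2.10 ± 0.18 (limma, adjusted p = 1e-06). It was 1.99 without NC replicate 6, and 3.47 and 3.95 with pseudocounts of 0.1 and 0.01 FPKM. Itgb1, a beta chain shared by many alpha chains and made by most cell types, was already at 77.5 to 172 FPKM in NC (median 135) and reached 198 to 229 FPKM in HFD (median 208). The log2 fold change of Itgb1 was 0.75 ± 0.19 (limma, adjusted p = 0.006), and 0.62 without NC replicate 6.

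The second comparison, of SZ-A with HFD, asks what the treatment changed while the diet went on. Of the 10 genes, 8 were lower in SZ-A and none was higher at an adjusted p under 0.05 (limma, 14695 genes tested), where 22.8% of all genes were called and 13.3% were called lower. Only Itgax and Itgb2 also passed the size of 1.5, where 0.558% of all genes were lower by that much. In 4 genes (Itgax, Icam1, Itga4 and Itgb1) every SZ-A mouse lay below every HFD mouse, as 4.01% of all genes did. The median log2 fold change was −0.98 over the 10 genes and 0.03 over all genes. Without SZ-A replicates 2 and 7, high in Krt18, 7 were called, Icam2 being higher (0.73, limma, adjusted p = 0.014) and Itgam and Itgb1 not called (0.094 and 0.071). The HFD mice are the same ones as in the first comparison, so the changes in the 2 comparisons are not independent.

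Itgax in SZ-A was 20.7 to 77.9 FPKM (median 26.0), just below the lowest HFD mouse at 82.8. Mean FPKM was 3.33-fold lower than in HFD, and the log2 fold change was −1.79 ± 0.28 (SE; limma, adjusted p = 0.001). Itgb2 was 56.7 to 212 FPKM (median 80.8), and SZ-A replicate 6 reached the range of HFD. Its log2 fold change was −1.54 ± 0.35 (limma, adjusted p = 0.0062), and it passed 1.5 only narrowly: leaving out any of HFD mice 1 and 5 and SZ-A mice 1, 2 and 4 left 1 gene past that size. Fermt3 was 9.32 to 48.3 FPKM (median 14.4), with SZ-A replicates 5 and 6 inside the HFD range, and its log2 fold change was −1.45 ± 0.32 (limma, adjusted p = 0.006).

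Itgam was 3.43 to 23.3 FPKM in SZ-A (median 5.36), and SZ-A replicates 5 and 6, at 23.3 and 11.5 FPKM, overlapped with HFD. The log2 fold change of −1.19 ± 0.38 (limma, adjusted p = 0.036) lost its call on leaving out any of 8 of the 14 mice (HFD replicates 1, 3 and 5 and SZ-A replicates 1, 2, 3, 4 and 7), with adjusted p from 0.056 to 0.078. Itgal was 0.818 to 1.57 FPKM (median 1.11), overlapped with HFD, and was not called. Its log2 fold change was −0.33, with a 95% interval from −0.58 to −0.08 (limma, adjusted p = 0.054). It was called on leaving out HFD replicate 2, HFD replicate 4 or SZ-A replicate 5 (adjusted p 0.036, 0.036 and 0.026).

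Icam1 in SZ-A was 4.10 to 7.11 FPKM (median 5.30), below all HFD mice, and mean FPKM was 1.84-fold lower. Its log2 fold change was −0.78 ± 0.13 (limma, adjusted p = 0.0011). Vcam1 was 2.93 to 4.89 FPKM (median 4.22), overlapping only with HFD replicate 4 at 4.70 FPKM, with a log2 fold change of −0.62 ± 0.16 (limma, adjusted p = 0.011), a call that was lost with all 3 groups in 1 fit (0.16). Icam2 went the other way in its values, at 8.39 to 19.9 FPKM (median 14.1), but overlapped with HFD and missed the threshold. The log2 fold change was 0.55, with a 95% interval from 0.14 to 0.96 (limma, adjusted p = 0.052), and it was called on leaving out HFD replicate 7 (adjusted p 0.032) or SZ-A replicate 2 (0.018).

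Itga4 in SZ-A was 1.29 to 3.45 FPKM (median 1.61), below every HFD mouse, with a log2 fold change of −1.18 ± 0.15 (limma, adjusted p = 3e-04). Mean FPKM of Itga4 was 2.89-fold lower than in HFD. Its log2 fold change ran from −1.59 to −1.14 over the alternatives other than leaving out 1 mouse. Itgb1 was 85.3 to 191 FPKM (median 166), also below every HFD mouse. Its call (log2 fold change −0.46 ± 0.16, limma, adjusted p = 0.048) was lost on leaving out any HFD mouse or SZ-A replicate 1, 4 or 7, with adjusted p from 0.058 to 0.092, and with all 3 groups in 1 fit (0.11). SZ-A replicate 5 was the lowest SZ-A mouse for Itgb1 and the highest for Itgam and Fermt3, and 11.6% of its reads were mitochondrial. This share was 3.30% to 8.34% in NC mice, 1.67% to 2.92% in HFD mice and 1.67% to 11.6% in SZ-A mice. Its part in the values of any comparison was not tested.

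**Figure D2:**
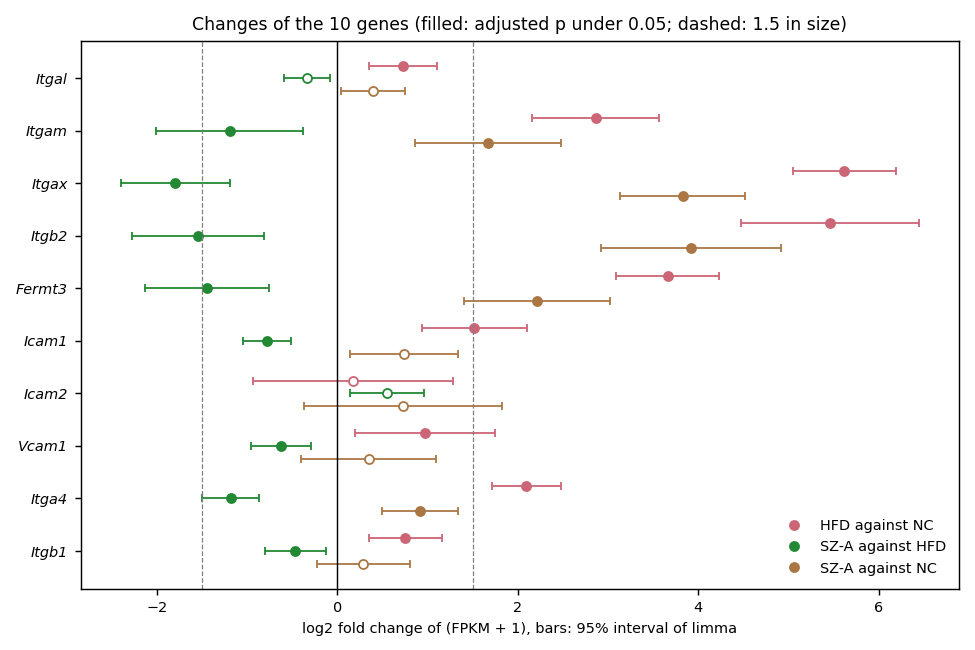
Log2 fold change of FPKM + 1 for the 10 genes in the 3 comparisons (x axis), with 95% intervals from limma; filled points have an adjusted p under 0.05 and dashed lines mark 1.5 in size. Of the 10 genes, 9 are filled for HFD against NC, 8 for SZ-A against HFD and 5 for SZ-A against NC.

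The third comparison, of SZ-A with NC, asks what was left of the difference from chow-fed mice. It shares its mice with the other two. Itgam, Itgax, Itgb2, Fermt3 and Itga4 were higher in SZ-A than in NC, 5 of the 10 genes, where 4.61% of all genes were called and 4.15% were called higher (limma, 14718 genes tested). Of these, 4 (all except Itga4) also passed the size of 1.5, where 1.73% of all genes were higher by that much. The same 5 did not overlap between the groups, where 3.22% of all genes did so upward. The log2 fold changes were 3.83 for Itgax (limma, adjusted p = 9.6e-05), 3.92 for Itgb2 (0.00054), 2.22 for Fermt3 (0.004), 1.67 for Itgam (0.021) and 0.92 for Itga4 (0.016). Itga4 was low in NC beside the 1 FPKM added before taking logs. With a pseudocount of 0.01 FPKM its log2 fold change was 2.37 and was not called (limma, adjusted p = 0.061). Mean FPKM of Itgax in SZ-A was still 24.9-fold that in NC (21.1-fold without NC replicate 6), and that of Itgb2 was 15.9-fold. Itgal (0.40), Icam1 (0.74), Icam2 (0.73), Vcam1 (0.35) and Itgb1 (0.29) were not called, with adjusted p from 0.16 to 0.63. Without NC replicate 6 the same 5 genes were called, at 3.63, 3.55, 2.04, 1.501 and 0.81 in the same order, and the 5 others, in the order above, stood at 0.30, 0.49, 0.19, 0.031 and 0.16 (limma, adjusted p from 0.20 to 0.97), so that all of these 5 except Itgal were smaller by over 1.5 times. The calls of Itgam, Fermt3 and Itga4 were lost without the libraries high in Krt18 (adjusted p 0.15, 0.066 and 0.18), and the call of Itgam without NC replicate 1 (0.057) or SZ-A replicate 6 (0.052).

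Because FPKM is per exon length, the alpha chains can be set against each other within a mouse. Of the summed FPKM of Itgal, Itgam and Itgax, Itgax made up 20.9% to 63.0% in NC (median 36.1%), 78.6% to 88.0% in HFD (median 86.4%) and, in the treated mice, 63.7% to 86.2% (median 81.5%). Itgal made up 8.31% to 27.3% in NC mice, 0.999% to 2.06% in HFD mice and 1.08% to 5.19% in SZ-A mice. The share of Itgax in NC was 24.9% to 63.0% (median 42.0%) without NC replicate 6. The beta-2 chain alone was 0.985 to 2.71 times the summed alpha chains in NC mice, 1.70 to 2.64 times in HFD mice and 2.14 to 2.65 times in SZ-A. These shares are of RNA, and no receptor on a cell surface was measured.

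**Figure D3:**
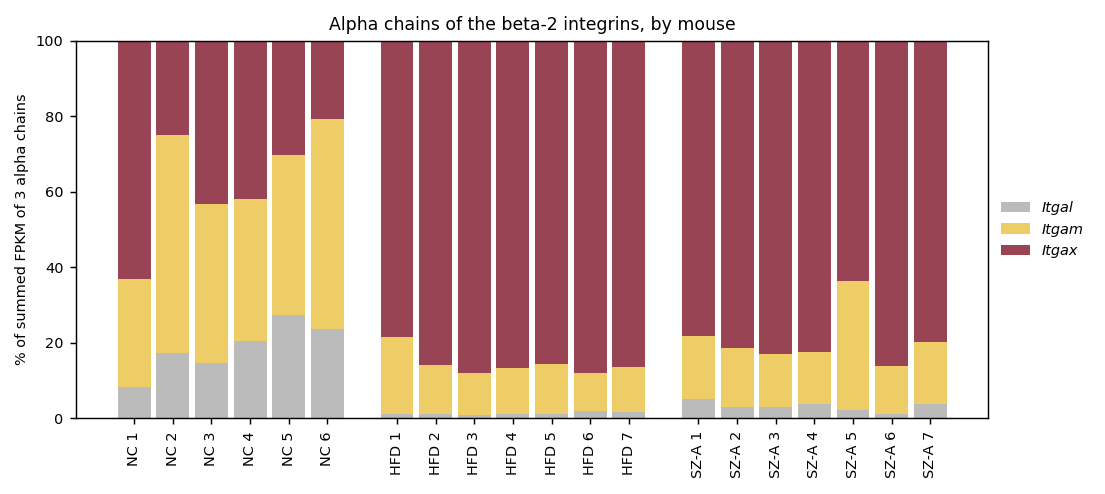
Share of Itgal, Itgam and Itgax in the summed FPKM of the 3 alpha chains (y axis, percent), 1 bar per mouse. Itgax is the largest part in every HFD and SZ-A mouse, at 63.7% or more, and at most 63.0% in NC.

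Log2 ratios of 2 genes within a mouse do not depend on library size, and 12 of them were tested in the 3 comparisons with exact two-sided permutation tests over mice, adjusted by Benjamini-Hochberg over the 36 tests. The smallest p these group sizes allow is 0.00058. In all, 24 passed. The log2 ratio Itgax/Itgam was −1.41 to 1.14 in NC and 1.96 to 3.15 in HFD, a difference of means of 3.04 (adjusted exact p = 0.0021). In SZ-A it was 0.908 to 2.76, and the difference from HFD was −0.50 (adjusted exact p = 0.096). That difference was −0.63 and was called (0.013) without HFD replicate 1, which had the lowest ratio of its group.

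Relative to the beta-2 chain, Itgal and Itgam were lower in HFD than in NC, by 4.18 and 2.19 on the log2 scale (exact, both adjusted p = 0.0021), while Itgax was higher by 0.86 (exact, adjusted p = 0.016). Fermt3/Itgb2 was −1.28 to 0.88 in NC and −3.00 to −2.06 in HFD, a difference of −1.77 (exact, adjusted p = 0.0021). Without NC replicate 6 the 4 differences were −3.97, −1.99, 0.83 and −1.47, all called, and that of Itgax/Itgam was 2.82. In SZ-A against HFD, only Itgal/Itgb2 of these 4 differed, by 0.98 (exact, adjusted p = 0.028), and that call was lost without HFD replicate 5 (0.051) or SZ-A replicate 1 (0.05). For Itgam/Itgb2, Itgax/Itgb2 and Fermt3/Itgb2 the differences were 0.22, −0.28 and 0.05 (exact, adjusted p = 0.40, 0.069 and 0.82). Without HFD replicate 1 or 5, Itgax/Itgb2 was called, at −0.36 (0.013) and −0.31 (0.047).

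Leukocyte and macrophage genes moved with the integrins. Ptprc (CD45, on all leukocytes) was 0.109 to 2.95 FPKM in NC mice, 10.8 to 22.4 FPKM in HFD mice and 3.53 to 10.1 FPKM in SZ-A mice. Adgre1 (F4/80, of macrophages) was 0.615 to 10.6, 140 to 258 and 34.2 to 122 FPKM. Their part in the changes of the integrins was not tested, but ratios within a mouse can be given. The log2 ratio Itgb2/Ptprc was 1.02 to 2.91 in NC and 3.74 to 4.58 in HFD, a difference of 1.84 with no overlap (exact, adjusted p = 0.0021; 1.87 without NC replicate 6). It was 3.69 to 4.40 in SZ-A, where the difference from HFD was −0.11 (exact, adjusted p = 0.56). Itgax/Adgre1 was higher in HFD than in NC by 1.14 (exact, adjusted p = 0.018) although NC replicate 1, at −0.43, lay above every HFD mouse, a call that was lost by rank sum (exact, adjusted p = 0.071). It differed by 0.05 between SZ-A and HFD (exact, adjusted p = 0.79). Itgam/Adgre1 was lower in HFD than in NC by 1.91 on the log2 scale (exact, adjusted p = 0.0035) and differed by 0.55 between SZ-A and HFD (exact, adjusted p = 0.14). Without HFD replicate 1 that difference was 0.73 (0.015). Without NC replicate 6, Itgax/Adgre1 and Itgam/Adgre1 differed by 1.08 and −1.74 between HFD and NC, both called.

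The ligands were set against Pecam1, an adhesion molecule of endothelial junctions that was not called between HFD and NC (limma, adjusted p = 0.51) or between SZ-A and HFD (0.66). In SZ-A against HFD, Icam1/Pecam1 was lower by 1.03 and Vcam1/Pecam1 by 0.88 on the log2 scale, whereas Icam2/Pecam1 was higher by 0.47 (exact, adjusted p = 0.011, 0.014 and 0.006). Icam2/Pecam1 was −2.26 to −1.83 in HFD mice and −1.85 to −0.60 in SZ-A mice, with SZ-A replicate 5 the highest. This result rested on the choice of Pecam1. Some other endothelial markers differed by more between SZ-A and HFD, with log2 fold changes of 1.23 for Cldn5 (limma, adjusted p = 0.089) and 1.20 for Egfl7 (0.028), against 0.13 for Pecam1. The median over the 10 endothelial markers was 0.36, and 1 was called. Cldn5 and Egfl7 were highest in SZ-A replicate 5, at 656 and 88.8 FPKM. With the mean log2 FPKM of 10 endothelial markers in place of Pecam1, chosen after seeing the data, the difference of Icam2 was 0.06 and was not called (exact, adjusted p = 0.69), whereas Icam1 and Vcam1 stayed lower, by 1.43 and 1.29 on the log2 scale (0.0019 and 0.0079). In HFD against NC, Icam2/Pecam1 was lower by 0.31 on the log2 scale (exact, adjusted p = 0.032), a call that was lost without NC replicate 1, 2, 4 or 6 or HFD replicate 3, 5 or 6 (0.055 to 0.063). Icam1/Pecam1 and Vcam1/Pecam1 differed by 1.17 and 0.69 (exact, adjusted p = 0.069 and 0.19). Without NC replicate 6, whose Icam1/Pecam1 of −0.68 stood above all other mice, both were called, at 1.64 (0.0035) and 0.97 (0.034). Against the mean of 10 endothelial markers, HFD and NC differed by 1.59 for Icam1 and 1.11 for Vcam1, both called (exact, adjusted p = 0.01 and 0.022), and the sign of Icam2 turned, to 0.11 (0.62). The ligands are not made by endothelium alone, and RNA of whole tissue does not resolve which cells carried them.

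Itga4/Itgb1 was −11.1 to −7.29 in NC mice, −5.51 to −4.99 in HFD mice and −7.05 to −5.37 in SZ-A mice. The difference was 3.28 between HFD and NC and −1.12 between SZ-A and HFD (exact, adjusted p = 0.0021 and 0.007; 2.77 between HFD and NC without NC replicate 6), so that the alpha chain of VLA-4 moved by more than its beta chain in both.

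**Figure D4:**
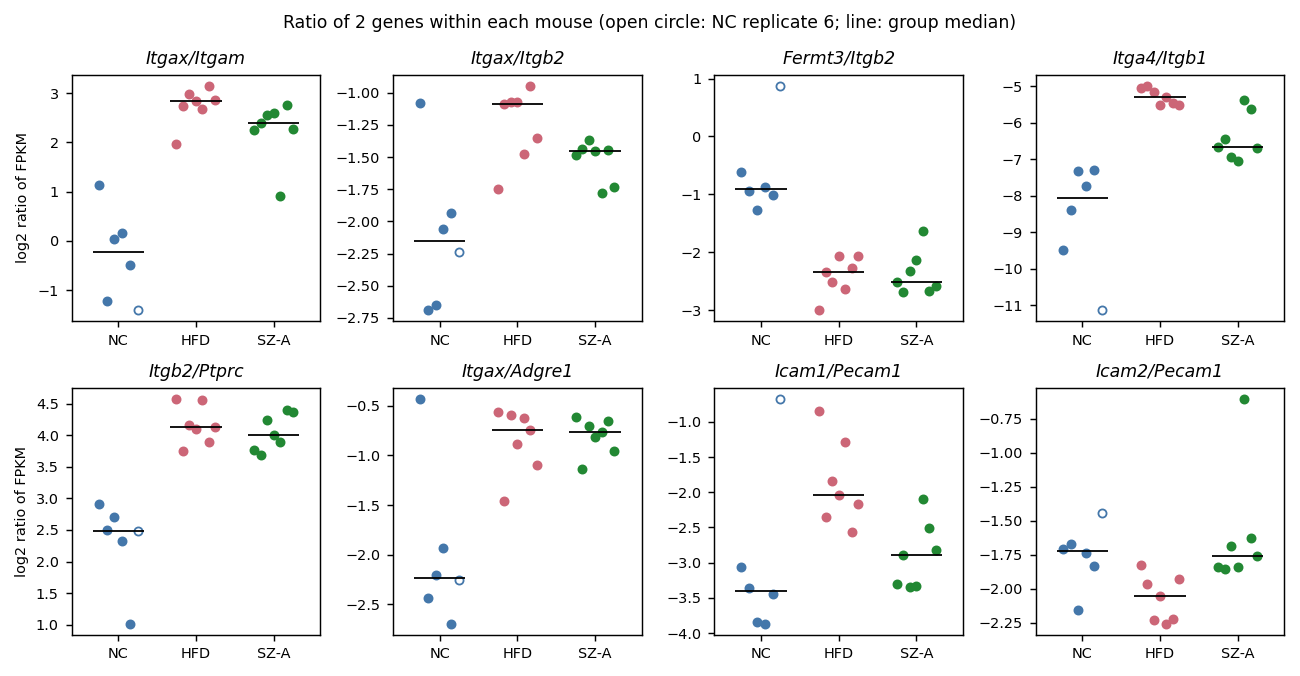
Log2 ratio of FPKM of 2 genes within each mouse (y axis, 1 panel per ratio) for the NC, HFD and SZ-A groups; lines are group medians and the open circle is NC replicate 6. Itgb2/Ptprc and Fermt3/Itgb2 separate NC from both high-fat groups, and the medians of Icam1/Pecam1 and Icam2/Pecam1 move in opposite directions between HFD and SZ-A.

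Other genes of leukocyte adhesion were counted from lists of 69 genes, of which 57 were in the table and tested. In HFD against NC 25 were higher and 7 lower, and in SZ-A against HFD 5 were higher and 22 lower (limma, adjusted p under 0.05), against 21.0% and 20.1%, and 9.47% and 13.3%, of all genes. In SZ-A against NC 13 were higher and 1 lower, against 4.15% and 0.455%. The median log2 fold changes were 0.59, −0.21 and 0.44. Without the libraries high in Krt18 the counts were 26 higher and 12 lower, 5 and 19, and 1 and 0 in the 3 comparisons (limma). They were 25 and 12 in HFD against NC and 15 and 2 in SZ-A against NC without NC replicate 6. Both ways of leaving out libraries were chosen after seeing the data.

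The list of inside-out activation, named for signals from inside the cell to the integrin tail, held most of these. It mixes genes that promote, follow or restrain integrin activation, so its counts give no measure of that activation. Of 24 tested, 16 were higher in HFD than in NC and only Skap1, an adaptor of T cells, was lower (−1.14, limma, adjusted p = 0.033). Skap1 was 0.134 to 6.41 FPKM in NC (median 0.959), highest in NC replicates 6 and 1, and at most 0.171 FPKM in HFD. Its call was lost without the libraries high in Krt18 (−0.22, limma, adjusted p = 0.082). There, 17 of the 24 were higher and 3 lower, namely Fermt2 (−1.09), Rasgrp2 (−0.83) and Itgb1bp1 (−0.94). Leaving out NC replicate 6 gave 16 higher and 3 lower, namely Skap1 (−0.82), Fermt2 (−0.76) and Itgb1bp1 (−0.73). In SZ-A against HFD 13 of the 24 were lower and 1 was higher (11 and 2 without the SZ-A libraries high in Krt18). The adaptors Fyb (−1.66) and Apbb1ip (RIAM, −1.38) and the exchange factor Vav1 (−1.27) were among those that fell, and each had risen in HFD, by 3.16, 2.71 and 3.07. Talin, Tln1, which works beside Fermt3, was 1.95 higher in HFD and lower in SZ-A, at −0.87, on the log2 scale (limma, adjusted p = 1.5e-05 and 0.0022). For Fyb, Apbb1ip, Vav1 and Tln1 the rises in HFD were 3.03, 2.545, 2.95 and 1.77 without NC replicate 6. The GTPase Rap1b (−0.76), its effector Rassf5 (−0.94), Skap2 (−0.80), the kinases Lyn (−0.77) and Syk (−1.04), Plcg2 (−0.98), Dok2 (−1.07) and Lcp2 (−1.08) fell as well; the calls of Syk and Dok2 were lost without the SZ-A libraries high in Krt18 (limma, adjusted p = 0.074 and 0.08). Rasgrp2, an exchange factor for Rap1, was the one that rose (0.86 ± 0.29, limma, adjusted p = 0.047), and Fermt2, the kindlin of non-blood cells, was not called in SZ-A against HFD (0.38, 95% interval −0.22 to 0.98).

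Of 12 alpha chains outside the beta-2 group, 4 were higher in HFD than in NC (Itga5 2.58, Itga11 1.57, Itgav 1.15 and Itga9 1.06) and 4 were lower (Itga3 −1.80, Itga2 −1.76, Itga2b −1.33 and Itga8 −0.52; limma). Of all genes, 21.0% were called higher and 20.1% lower. The same 8 were called without NC replicate 6, at 2.16, 1.43, 1.14, 0.89, −1.70, −1.84, −1.19 and −0.60 in that order. In SZ-A against HFD 4 fell (Itga5 −1.02, Itgav −0.94, Itga9 −0.77 and Itga11 −0.71), while Itga3, an epithelial laminin receptor, rose (0.76, limma, adjusted p = 0.014). There, 13.3% of all genes were called lower and 9.47% higher. These include receptors for fibronectin (Itga5) and collagen (Itga11). Without the libraries high in Krt18, Itga5, Itga9 and Itga2b changed by less in HFD against NC (1.68, 0.64 and −0.57, all called), and Itga5 was not called in SZ-A against HFD (−0.80, limma, adjusted p = 0.055). Among 4 beta chains, Itgb5 rose in HFD (1.64; 1.003 without the libraries high in Krt18) and fell in SZ-A (−0.61; not called without those libraries, limma, adjusted p = 0.053), Itgb3 fell in SZ-A (−0.66) and Itgb4 fell in HFD (−0.75). Itgb7, the other partner of Itga4, rose in HFD (1.93, limma, adjusted p = 0.00019) and was not called in SZ-A against HFD (−0.44, adjusted p = 0.28), whereas Itgae, its partner on resident T cells, was higher in SZ-A than in HFD in every mouse (0.46, adjusted p = 0.0059). Itgb5 and Itgb7 rose by 1.24 and 1.72 in HFD without NC replicate 6. Itgae was low, at 0.0283 to 0.242 FPKM (2 to 20 reads) in HFD and 0.249 to 1.17 FPKM in SZ-A. It was highest in SZ-A replicate 2 among treated mice and in NC replicate 6 (4.16 FPKM) among NC mice. Of 8 T cell markers, 0 were called higher and 1 lower in SZ-A against HFD (limma).

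Genes of the earlier and later steps of leukocyte entry were in the remaining lists. Of 8 tested selectins and their ligands, 2 were higher and 0 lower in HFD against NC, where 21.0% and 20.1% of all genes were. In SZ-A against HFD 1 was higher and 2 were lower, against 9.47% and 13.3% of all genes. Podxl and Esam were lower in HFD than in NC without NC replicate 6 (−0.91 and −0.60, limma, adjusted p = 0.042 and 0.046). Podxl was also lower without the libraries high in Krt18 (−1.34, limma, adjusted p = 0.0069). Of 8 tested genes listed with the selectins and their ligands, Selplg (the P-selectin ligand of leukocytes) rose by 3.41 in HFD and fell in SZ-A (−1.23, limma, adjusted p = 0.0039), and Cd34 rose by 1.05 and fell (−0.65, adjusted p = 0.0045). Their rises in HFD were 3.155 and 1.16 without NC replicate 6. Selp itself, P-selectin, was not called in SZ-A against HFD (−0.21, adjusted p = 0.27), and Esam, a junction molecule of endothelium, rose there (0.66, adjusted p = 0.039). Of 7 other immunoglobulin-like and junction genes, F11r (JAM-A) was lower in HFD than in NC (−1.41) and rose with SZ-A (0.81, limma, adjusted p = 0.021), and Thy1 went the opposite way (1.12 and −0.84, adjusted p = 0.02 and 0.042). F11r and Thy1 stood at −1.38 and 0.89 in HFD against NC without NC replicate 6. Without the libraries high in Krt18, Thy1 was called in neither comparison (limma, adjusted p = 0.10 and 0.086), F11r was not called in SZ-A against HFD (0.060), and Esam was lower in HFD than in NC (−0.87, 0.012). Sele, Madcam1 and Itgad, among others of the lists, were not analysed here.

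**Figure D5:**
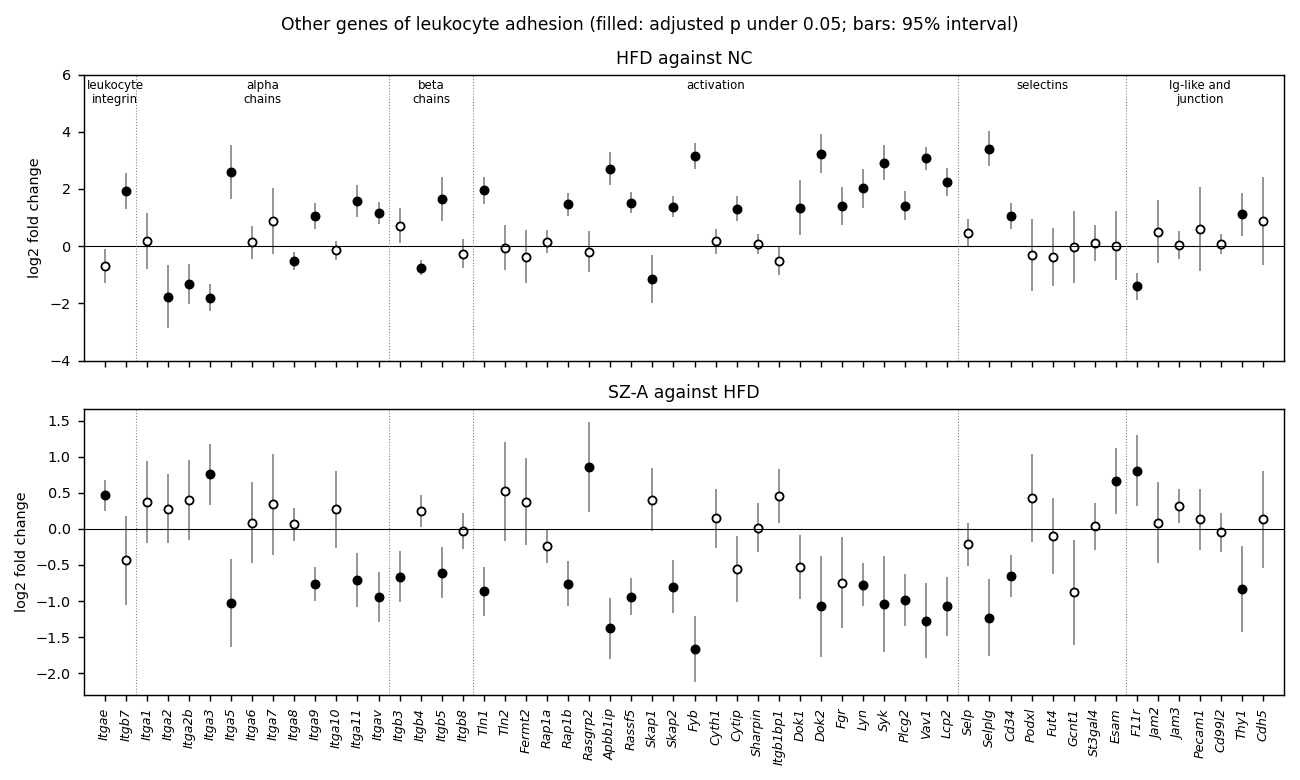
Log2 fold change of FPKM + 1 (y axis) with 95% intervals from limma for 56 of the 57 other genes of leukocyte adhesion, in HFD against NC (upper panel) and SZ-A against HFD (lower panel); filled points have an adjusted p under 0.05 and dotted lines part the lists. Filled points above 0 in the upper panel (24) outnumber those below (7), and in the lower panel 21 lie below 0 and 5 above.

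The genes whose levels ran most alike to each of the 10 were found by Pearson's r of log2(FPKM + 1) over the 20 mice, as a description in which the points share the group differences and the composition of the tissue. For Itgb2 they were Ctss (0.996), Mpeg1 (0.994) and Ctsk (0.992), all of them genes of macrophages. For Itgax they were Myo1f (0.994), Specc1 (0.993) and Nckap1l (0.992), and for Fermt3 they were Myo1g, Psap and Vav1 (0.995 to 0.994). Itgal ran with Cxcr3 (0.942), a chemokine receptor of T cells, and within groups with Trac (0.882), the constant chain of the T cell receptor. Icam1 ran with Mfap5 (0.988), a matrix gene of fibroblasts, also within groups (0.964), and Icam2 with Cd300lg (0.973), a gene of capillary endothelium. Vcam1 ran with Rnase4 (0.975), Itga4 with Naip2 (0.988), Itgb1 with Adam9 (0.965) and Itgam with Ahnak2 (0.985).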

How the data were processed

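RNA sequencing of eWAT was analysed here for 20 mice, 1 NC mouse fewer than the study describes. The authors aligned reads to GRCm38, counted them per gene with featureCounts 1.5.0-p3 (submitters' processing notes) and deposited FPKM in 1 table. Groups came from the sample titles. FPKM were tested as log2(FPKM + 1) with limma 3.58.1 (R 4.3.3, eBayes with trend), within the 2 groups compared, over genes whose mean reached 0.1 FPKM, with Benjamini-Hochberg adjustment. A gene was called at an adjusted p under 0.05; the stricter rule added a log2 fold change over 1.5 in size, as in the methods of the study, whose text also words its limit as a plain fold change. Ratios within a mouse were tested by exact permutation over every split of the mice (NumPy 2.4.6), with SciPy 1.17.1 used for the ranks of the rank-sum alternative. Whole reads were recovered from FPKM and GENCODE M21 exon lengths (95.9% to 96.3% of values under 1000 reads were whole within 0.01) and used for the depths and for 1 alternative. The limma step was checked on simulated data. The genes, lists and tests were chosen with earlier results of these data known. All 10 genes were named in each comparison; of the other adhesion genes, those called in SZ-A against HFD or with the largest changes were named, and 1 gene that is counted is not reported here singly. Promoters came from RefSeq (GRCm38.p6). Nothing says that mice of a group came from separate cages or litters, so p-values measure the spread between these mice. Alternatives were other pseudocounts (0.1 and 0.01), filters, scalings, fits and left-out mice.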

Additional observations from a re-analysis of the deposited data

Results flagged for a closer look

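In 66 sets of values (the 10 genes and 12 ratios in each group), the highest or lowest mouse was tested for standing apart from its group by Dixon's criterion, which chance passes in about 1 of 20 sets, and 11 were marked. SZ-A replicate 5 accounted for several. Its Itgb1 was 6.43 as log2(FPKM + 1), against 7.17 to 7.58 in the other SZ-A mice. Its log2 ratios were −2.69 for Itgam/Itgb2 (others −4.21 to −3.73), 0.91 for Itgax/Itgam (others 2.25 to 2.76), −1.67 for Itgam/Adgre1 (others −3.52 to −2.86) and −0.60 for Icam2/Pecam1 (others −1.85 to −1.63).

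NC replicate 6, the mouse low in adipose markers, had the highest log2 ratios of its group for Fermt3/Itgb2 (0.88, others −1.28 to −0.61) and Icam1/Pecam1 (−0.68, others −3.87 to −3.06). NC replicate 1 stood at −0.43 for Itgax/Adgre1 (others −2.69 to −1.93), and NC replicate 5 at 1.02 for Itgb2/Ptprc (others 2.33 to 2.91). HFD replicate 1 stood at 1.96 for Itgax/Itgam (others 2.69 to 3.15), and SZ-A replicate 2 at −2.82 for Vcam1/Pecam1 (others −3.63 to −3.34). The causes were not tested.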

How the results depend on the processing

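Of 729 refits of the 30 changes of single genes, 658 kept their direction and their side of the threshold, 52 lost the call, 13 gained it and 6 reversed. Of the 10 genes, those called numbered 8 to 9 in HFD against NC, 6 to 9 in SZ-A against HFD and 4 to 5 in SZ-A against NC on leaving out 1 mouse. Those past the size of 1.5 numbered 5 to 6, 1 to 3 and 3 to 4. In SZ-A against HFD, 4 passed that size with a pseudocount of 0.01 and 1 without the libraries over 100 FPKM of Krt18, an alternative chosen after seeing the data. In SZ-A against NC, 2 were called and 2 passed the size both with a replicate block and without those libraries. Mice of the same number did not deviate together (correlations −0.41 to 0.58), so the block is no pairing. The ratios called numbered 22 to 27 on leaving out 1 mouse, against 24 with all mice, 23 with a pseudocount of 0.1 and 21 by rank sum. Icam2/Pecam1 in HFD against NC turned to 0.11 against the mean of 10 endothelial markers, where 24 ratios were called, and ranged from −0.39 to −0.25 on leaving out 1 mouse. Icam2 in HFD against NC turned to −0.23 with array weights and −0.78 without the Krt18 libraries (limma, adjusted p = 0.025), and ranged from −0.36 (without NC replicate 6) to 0.44 on leaving out 1 mouse. Without those libraries, SZ-A against NC turned to −0.050 for Icam2, −0.38 for Vcam1 and −0.057 for Itgb1. Some log2 ratios that were not called also turned on leaving out 1 mouse. In SZ-A against NC, Icam1/Pecam1 ranged from −0.021 (without NC replicate 4; −0.016 without NC replicate 3) to 0.62, Vcam1/Pecam1 from −0.33 to 0.086 (without NC replicate 6) and Icam2/Pecam1 from −0.0095 (without SZ-A replicate 5) to 0.22. In SZ-A against HFD, Fermt3/Itgb2 ranged from −0.074 (without SZ-A replicate 5; −0.050 without HFD replicate 1) to 0.11 and Itgax/Adgre1 from −0.051 (without HFD replicate 2) to 0.11. The causes were not tested. All genes called ranged from 2089 (all 3 groups in 1 fit) to 6403 (array weights) in SZ-A against HFD, and from 167 (block) to 2639 (array weights) in SZ-A against NC. Precision of the lowest values was limited by depth, with 7 reads of Itga4 and 9 of Itgax in NC replicate 6.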
